A study of Mus musculus with 6 samples.

Results

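Genes of other blood lineages were examined in RNA of sorted CD8+ T cells, to size what each library held beside T cells. The set comprised 31 genes of the 78275 in the table, picked by symbol: 12 B cell, 10 myeloid and 6 dendritic cell genes, the NK cell gene *Ncr1* and the 2 globin genes *Hbb-bs* and *Hba-a1*. CD4- CD8+ TCRβhigh cells without propidium iodide uptake had been sorted from 3 WT and 3 BIT mice, 1 library per mouse, and the sample labels state a purity above 98%. All mice were on the C57BL/6 background, and the labels give them as males of 9 to 10 weeks. BIT mice are homozygous for an allele in which the sequence of *Psmb11*, encoding the thymoproteasome subunit β5t, was placed in exon 1 of *Psmb8*, encoding the immunoproteasome subunit β5i. The allele is in the germline, so that any B cell, myeloid cell or erythroid precursor in a BIT library carries it as the T cells do. The study documents a single line of BIT mice unless otherwise stated. The source field of the labels names lymph nodes, whereas their protocol names lymph nodes and spleens. A level below is an estimated count scaled to a library total of 1000000 (CPM).

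Blood lineages are told apart by genes that encode their receptors and the factors that fix their fate. B cells carry an antigen receptor made of immunoglobulin chains and the signalling pair CD79A and CD79B, and the factors PAX5 and EBF1 maintain their identity. Macrophages depend on the growth factor receptor CSF1R, neutrophils store the calcium-binding proteins S100A8 and S100A9, and conventional dendritic cells use FLT3, ZBTB46 and IRF8. Lymph nodes and spleen hold all of these beside T cells, and erythroid precursors are found in the mouse spleen and bone marrow. Some members are not restricted to the lineage they stand for here. CD8+ T cells can display the integrins encoded by *Itgax* and *Itgam* and use *Irf8*, and T cells can transcribe an unrearranged *Ighm* locus.

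The totals of estimated counts were between 37467678 and 52922675 per library, and a count of 0 allows up to 3 counts, a floor of between 0.0567 and 0.0801 CPM depending on the library, which reflects counting error alone. *Psmb8* was between 201 and 205 CPM in the WT libraries and between 1.4 and 1.63 CPM in the BIT libraries, and *Psmb11* had 0 counts in the WT libraries and between 32.7 and 43 CPM in the BIT libraries. The library of WT replicate 3 went against its label: it held 1670 CPM of *Xist*, which is transcribed from the inactive X chromosome of females, and 0 counts of *Eif2s3y*, *Uty*, *Kdm5d* and *Ddx3y*, Y-linked genes whose counts summed to between 8474 and 12329 in the other libraries. *Xist* was 3.34 CPM in BIT replicate 3 and between 0.0396 and 0.17 CPM in the 4 remaining libraries. The members as a set, the counts of genes called in the larger lists, and some single genes and sums are therefore also given without WT replicate 3. The 11 T cell identity genes, among them those of the CD3 chains and CD8, summed to between 5560 and 6080 CPM in every library. Single genes of the 11 varied more: by limma-voom 3 were lower and 1 higher in BIT at an unadjusted p below 0.05, beside 4.32% and 4.25% of all genes. These were *Trbc1*, *Cd3g* and *Cd247*, with log2 fold changes of -0.45, -0.34 and -0.24, and *Zap70* at 0.29, and 0 of the 11 had an adjusted p below 0.05. Without WT replicate 3, 5 of the 11 were lower and 1 higher at the unadjusted threshold, beside 6.43% and 5.27% of all genes then tested.

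All 31 members together took between 0.0438% and 0.049% of the counts of a library. Of the 31, 27 were above 3 counts in every library, 25 had a mean level of at least 1 CPM, and 5 had a mean of at least 10 CPM. Most of the sum was *Ighm*, which alone was between 78% and 84.6% of the B cell sum. Different genes can be compared roughly per kilobase of exon. The length used counts every annotated exon of a gene, not the transcript in use, so that levels are understated unevenly. On it, *Ighm* had a mean level of 165 CPM, followed by *Igkc* with 39.5, *Cst3* with 18.7, *Cd79b* with 9.72 and *Ighd* with 5.24. On that scale *Cd3e* had 243, *Cd8b1* had 505, and every other member was below *Ighd*.

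**Figure D1:**
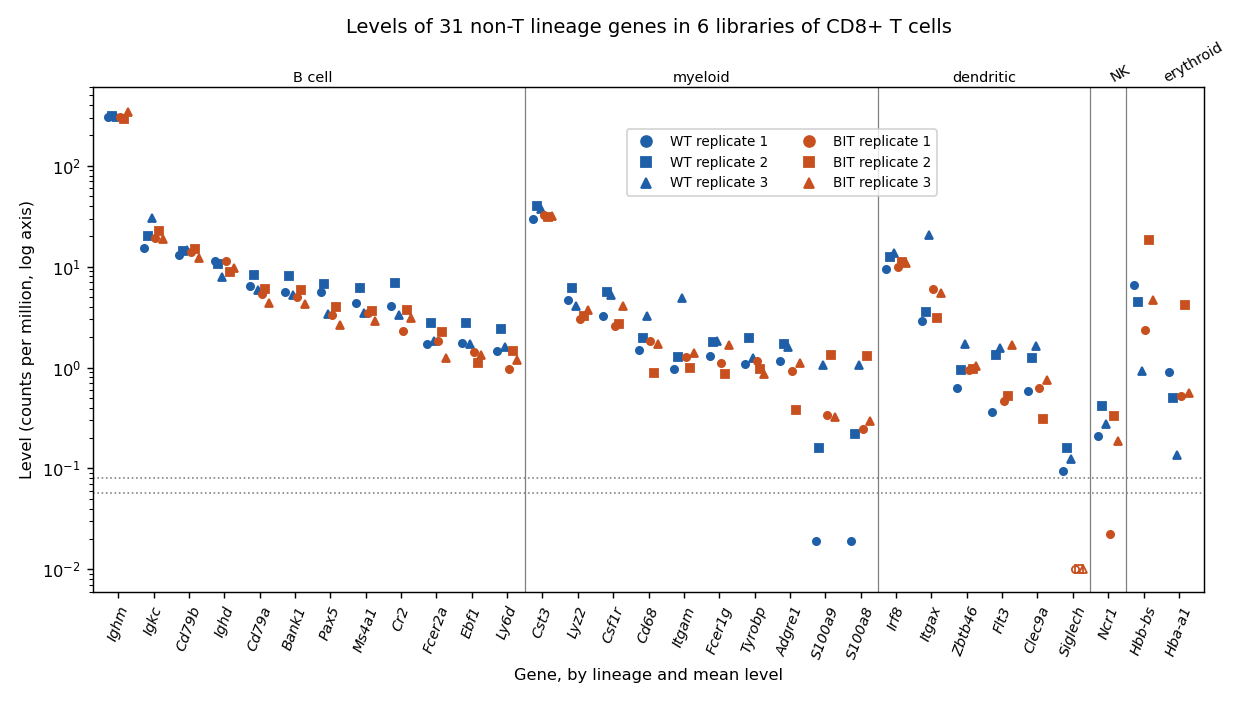
Level of each of the 31 members in each library, in CPM on a log axis, with genes ordered by lineage and mean level. Blue marks are WT and orange marks BIT libraries, open marks at the bottom are counts of 0, and the dotted lines are the levels of 3 counts in the deepest and shallowest library. *Ighm* lies between 294 and 338 CPM in every library, and wide spreads are seen for *S100a8*, *S100a9*, *Hbb-bs* and *Hba-a1*.

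None of the 30 members with enough counts to be tested passed the test of a difference between BIT and WT mice. At a Benjamini-Hochberg adjusted p below 0.05 over all genes, limma-voom called 0 members, edgeR 0 and DESeq2 0. Over the 16105 genes tested, limma-voom called 22, which is 0.137%, edgeR 14 and DESeq2 125. At an unadjusted p below 0.05, limma-voom called 0 members, edgeR 1 and DESeq2 4. Beside these, limma-voom called 4.32% of all genes lower and 4.25% higher in BIT, and edgeR and DESeq2 called 7.44% and 7.21% of all genes in either direction. The smallest adjusted p of a member was 0.599 (*Adgre1*), and the 95% interval of the change lay within 2-fold for 10 members, so that for the other 20 a 2-fold change was not excluded at this depth and number of mice. The fitted log2 fold change was below 0 for 24 of the 30, beside 47.7% of all genes, and its median was -0.30, beside 0.012 for all genes. The members were measured in the same libraries, and those of a lineage may come from the same cells, so that their directions are not independent of each other. In bulk RNA, fewer cells of a lineage cannot be told apart from less RNA per cell.

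Among the genes of the B cell receptor, *Ighm* was the highest of all members, and the changes of *Ighm*, *Igkc*, *Cd79b* and *Ighd* were fitted near 0. *Ighm*, on chromosome 12 (113382178 to 113386350, minus strand, GRCm39), encodes the constant region of the μ heavy chain. Its levels were 308, 315 and 304 CPM in the WT libraries and 303, 294 and 338 CPM in the BIT libraries, 309 ± 5.49 against 312 ± 23.4 CPM (SD, n = 3 each). The groups overlapped, with the highest value in BIT replicate 3, and the log2 fold change was -0.08 ± 0.0858 (SE, as for all log2 fold changes that follow, adjusted p = 0.825, exact permutation p = 0.4). *Igkc*, which encodes the constant region of the κ light chain (chromosome 6, 70703419 to 70703950, plus strand), had 15.2, 20 and 30.1 CPM in the WT libraries and 19.4, 22.8 and 18.6 CPM in the BIT libraries. Its highest value was in WT replicate 3 and its lowest in WT replicate 1, with the BIT libraries between them, and the log2 fold change was -0.04 ± 0.214 (adjusted p = 0.965), or 0.17 without WT replicate 3. An antisense lncRNA, Gm68839, covers 97.93% of the exon of *Igkc*.

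*Cd79b* had 13, 14.4 and 14.6 CPM in the WT libraries and 14.1, 15.1 and 12.2 CPM in the BIT libraries. The values lay within a narrow range in both genotypes, with a log2 fold change of -0.01 ± 0.135 (adjusted p = 0.992, 95% interval -0.31 to 0.30). *Ighd*, the constant region of the δ heavy chain of mature naive B cells, was between 7.94 and 11.3 CPM in all libraries, with a log2 fold change of 0.03 ± 0.213. The partner chain gene *Cd79a* was between 5.91 and 8.25 CPM in the WT and between 4.32 and 5.97 CPM in the BIT libraries, with a log2 fold change of -0.37 ± 0.26 (adjusted p = 0.716). On a per-kilobase scale, the mean of *Cd79a* and *Cd79b* was between 4.06% and 4.89% of the mean of the CD3 genes *Cd3d*, *Cd3e* and *Cd3g*, with WT replicates 2 and 3 highest and BIT replicate 3 lowest.

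The B cell factors and coreceptors were lower and varied more. *Pax5* and *Ebf1*, the factors that commit cells to the lineage, had log2 fold changes of -0.58 ± 0.39 and -0.54 ± 0.353, with adjusted p of 0.708 and 0.702. *Ms4a1*, which encodes CD20, *Cr2*, which encodes the complement receptor CD21, and *Ly6d*, a surface protein of the lineage, lay at -0.42, -0.53 and -0.49. The adaptor gene *Bank1* and the low-affinity IgE receptor gene *Fcer2a* lay at -0.27 and -0.14. In 8 of the 12 B cell members the highest library was WT replicate 2, and in 6 the lowest was BIT replicate 3, and the genotypes overlapped in all 12 on the normalized scale of the test, although on the CPM scale every BIT value of *Ebf1* (1.12 to 1.41) was below every WT value (1.7 to 2.79). The widest range among the B cell factors and coreceptors was that of *Cr2*, from 2.32 CPM in BIT replicate 1 to 6.82 CPM in WT replicate 2.

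The B cell genes were not in a fixed ratio to each other from library to library. There were between 0.868 and 0.994 counts of *Bank1* and between 0.593 and 0.741 counts of *Ms4a1* for each count of *Cd79a*, ranges of 1.15 and 1.25 times. The range was 1.53 times for *Pax5*, and 1.62 times for *Cd79b*, from 1.75 counts in WT replicate 2 to 2.83 in BIT replicate 3. There were between 38.2 counts of *Ighm* per count of *Cd79a* in WT replicate 2 and 78.3 in BIT replicate 3, a range of 2.05 times, and between 2.37 and 5.1 counts of *Igkc*, highest in WT replicate 3, a range of 2.15 times. The B cell sum without *Ighm* was 70.5, 88.9 and 79.2 CPM in the WT libraries and 68.5, 75 and 61.6 CPM in the BIT libraries. The ratio of the BIT to the WT mean was 0.86, or 0.858 without WT replicate 3, and the groups overlapped.

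**Figure D2:**
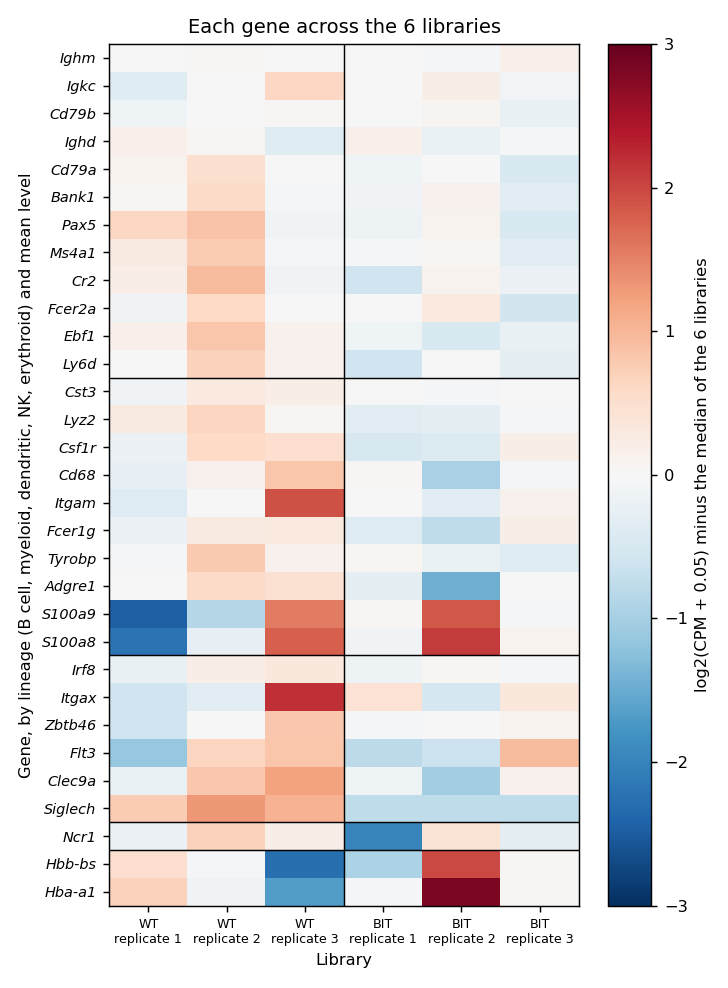
Each member across the 6 libraries, as log2(CPM + 0.05) minus the median of the 6, with red above and blue below it. WT replicate 2 is above the median for most B cell genes, WT replicate 3 for *Itgam* and *Itgax*, and BIT replicate 2 for *S100a8*, *S100a9* and the globins.

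Myeloid members were low apart from *Cst3*, and those of macrophages had their fitted changes below 0. *Cst3*, the gene of the secreted protease inhibitor cystatin C, had 30, 39.6 and 37.3 CPM in the WT libraries and 32.8, 31.2 and 31.8 CPM in the BIT libraries, with the BIT values inside the WT range and a log2 fold change of -0.18 ± 0.132 (adjusted p = 0.735). *Lyz2*, which encodes lysozyme, had 4.72, 6.11 and 4.06 CPM in the WT libraries and 3.06, 3.23 and 3.76 CPM in the BIT libraries. On the CPM scale every BIT value was below every WT value, but on the normalized scale of the test the groups overlapped, and the log2 fold change was -0.50 ± 0.26 (adjusted p = 0.64, exact permutation p = 0.3). *Csf1r*, the receptor of the macrophage growth factor, had 3.23, 5.56 and 5.18 CPM in the WT libraries and 2.57, 2.73 and 4.08 CPM in the BIT libraries. WT replicate 1 lay among the BIT libraries, and the log2 fold change was -0.50 ± 0.237 (adjusted p = 0.619).

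*Adgre1*, which encodes the macrophage surface protein F4/80, was the member with the smallest p and the sole member whose groups did not overlap on the normalized scale. It had 1.15, 1.72 and 1.58 CPM in the WT libraries and 0.916, 0.38 and 1.12 CPM in the BIT libraries, between 16 and 87 counts. The highest BIT and the lowest WT value were close, and the log2 fold change was -0.83 ± 0.376 (unadjusted p = 0.0556, adjusted p = 0.599, exact permutation p = 0.1, the smallest that 3 against 3 allows). Among all genes tested, every BIT library was below every WT library in 5.96%, and above in 7.38%. *Cd68*, a lysosomal protein of macrophages, and the adaptor genes *Fcer1g* and *Tyrobp*, which serve receptors of several innate lineages, lay at -0.45, -0.33 and -0.34, none past the test.

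The neutrophil genes *S100a8* and *S100a9* were high in the same libraries and had few counts. *S100a8* had 0.0189, 0.218 and 1.05 CPM in the WT libraries and 0.246, 1.31 and 0.294 CPM in the BIT libraries, and *S100a9* had 0.0189, 0.158 and 1.05 CPM against 0.335, 1.33 and 0.32 CPM. Both were highest in BIT replicate 2 and WT replicate 3, and WT replicate 1 had 1 count of each, under the floor of 3. The fitted log2 fold changes of 1.84 ± 1.17 and 2.22 ± 1.12 (adjusted p = 0.694 and 0.638) depend on single libraries: without WT replicate 1 they were 0.36 and 0.77, and without BIT replicate 2 they were 0.88 and 1.33. There were between 0.727 and 1.36 counts of *S100a9* per count of *S100a8*.

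The integrin genes *Itgam* and *Itgax*, which encode CD11b and CD11c and lie 10.9 kb apart on chromosome 7, stood apart in WT replicate 3. *Itgam* had 0.964, 1.27 and 4.93 CPM in the WT libraries and 1.27, 0.998 and 1.39 CPM in the BIT libraries. *Itgax* had 2.91, 3.58 and 20.6 CPM in the WT libraries and 6.03, 3.07 and 5.53 CPM in the BIT libraries. The value of WT replicate 3 was 3.88 and 4.52 times the median of the 6 libraries, and without it the log2 fold change turned from -0.42 to 0.12 for *Itgam* and from -0.24 to 0.48 for *Itgax*. None of these changes passed the test (adjusted p = 0.832 and 0.932 with all libraries, 0.908 and 0.554 without WT replicate 3). In *Itgam*, 67.41% of the exon bases are also annotated to the gene Gm49368 on the same strand. Among the other genes of the lists, the granzyme gene *Gzma* had its highest level, 61.2 CPM, in the same library, against 3.44 to 8.44 CPM elsewhere.

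Of the remaining dendritic members, *Irf8*, *Zbtb46* and *Clec9a* were also highest in WT replicate 3, but at 1.24, 1.8 and 2.41 times the median. *Siglech* reached 3.35 times the median in WT replicate 2, on 8 counts. *Irf8*, a factor of dendritic cells and other leukocytes, had 9.47, 12.6 and 13.7 CPM in the WT libraries and 9.92, 11.2 and 10.8 CPM in the BIT libraries, with a log2 fold change of -0.13 ± 0.147 (adjusted p = 0.822). *Zbtb46*, the factor that marks conventional dendritic cells, had 0.624, 0.949 and 1.73 CPM in the WT libraries and 0.938, 0.975 and 1.04 CPM in the BIT libraries, with a log2 fold change of 0.15 ± 0.323. The BIT values of both genes lay inside the range of the WT values. *Flt3*, the receptor of the growth factor of dendritic cells, and *Clec9a*, a receptor of cross-presenting dendritic cells, lay at -0.07 ± 0.54 and -0.77 ± 0.409 (adjusted p = 0.976 and 0.645). In *Clec9a*, 77.07% of the exon bases are also annotated to the gene *Clec1a* on the opposite strand. *Siglech*, a receptor of plasmacytoid dendritic cells, had too few counts to be tested: there were 5, 8 and 5 counts in the WT libraries and 0 in each of the BIT libraries, and a count of 0 allows up to 3. The summed level of the 6 dendritic members was 14, 19.9 and 39.3 CPM in the WT libraries and 18, 16.1 and 19.8 CPM in the BIT libraries. The ratio of the means, 0.736, was 1.06 without WT replicate 3.

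NK cell RNA was near the limit of detection by *Ncr1*, which encodes the activating receptor NKp46. It had 0.208, 0.415 and 0.275 CPM in the WT libraries and 0.0223, 0.333 and 0.187 CPM in the BIT libraries, which are between 1 and 21 counts. BIT replicate 1 was below the floor of 3 counts, the other libraries overlapped, and the log2 fold change was -0.72 ± 0.678 (adjusted p = 0.795).

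**Figure D3:**
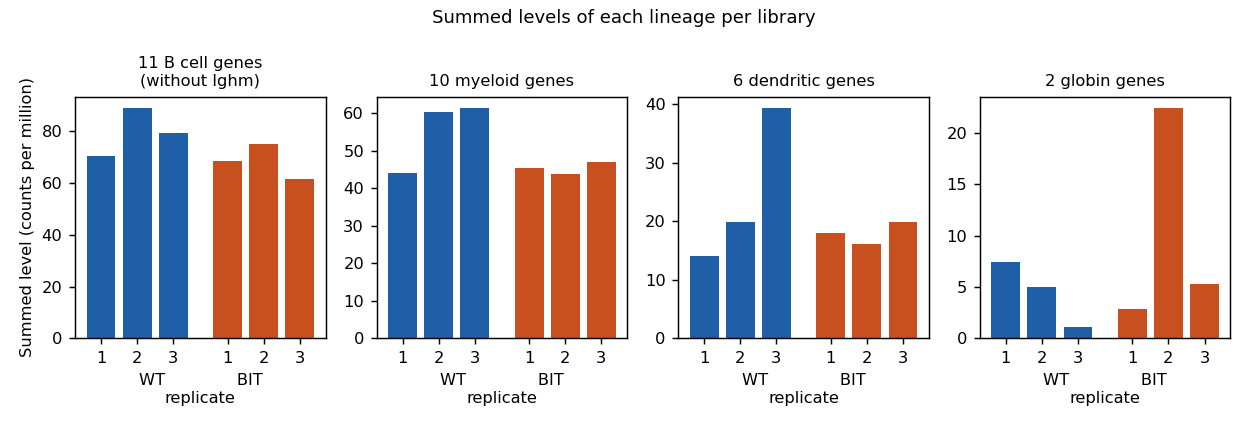
Summed level in CPM of the members of each lineage in each library, with WT replicates 1 to 3 in blue and BIT replicates 1 to 3 in orange. *Ighm* is left out of the B cell sum. WT replicate 3 has the highest dendritic sum, 39.3 CPM, and BIT replicate 2 the highest globin sum, 22.4 CPM.

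The summed level of the globins differed 21.2 times between the highest and the lowest library. The range was 1.44 times for the B cell sum without *Ighm*, 1.4 times for the myeloid sum and 2.8 times for the dendritic sum. It was 18.6 times for *Ncr1*, whose lowest library had 1 count. *Cst3* made up most of the myeloid sum, in which *S100a8* alone ranged from 0.0189 to 1.31 CPM. *Hbb-bs*, an adult β-globin gene, had 6.52, 4.5 and 0.923 CPM in the WT libraries and 2.36, 18.2 and 4.71 CPM in the BIT libraries. *Hba-a1*, an adult α-globin gene, had 0.909, 0.501 and 0.136 CPM in the WT libraries and 0.524, 4.16 and 0.561 CPM in the BIT libraries. Both were highest in BIT replicate 2, at 3.96 and 7.68 times the median, and lowest in WT replicate 3, and the other BIT libraries lay inside the range of the WT libraries. The log2 fold changes were 0.96 ± 0.901 and 1.55 ± 1.06 (adjusted p = 0.791 and 0.714), and 0.05 and 0.64 without WT replicate 3. The ratio of the summed levels of BIT to WT was 2.27, and 1.64 without WT replicate 3. Without BIT replicate 2 its log2 value was -0.14, and the fitted log2 fold changes were 0.14 and 0.55.

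Reads of the globin genes are shared with near-identical copies, so that the split between copies is an estimate. The coding sequences of *Hbb-bs* and *Hbb-bt* have 444 bases and differ at 1 of them, and those of *Hba-a1* and *Hba-a2* have 429 bases and also differ at 1. The longest identical runs, 416 and 380 bases, exceed the length of a read. The windows around these differences, from the Gencode M39 transcripts, are printed to show what little of the coding sequence can assign a read, with the differing base in capitals (C417T from *Hbb-bs* to *Hbb-bt*, C381T from *Hba-a1* to *Hba-a2*, counted from 1 at the A of the start codon).
Hbb-bs: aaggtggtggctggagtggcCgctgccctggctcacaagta
Hbb-bt: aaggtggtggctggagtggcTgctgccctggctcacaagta
Hba-a1: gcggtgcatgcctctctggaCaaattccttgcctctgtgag
Hba-a2: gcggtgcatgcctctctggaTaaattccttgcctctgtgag
The sum of the 4 genes is not affected by the split between these copies. It was 10.7, 7.3 and 1.28 CPM in the WT libraries and 4.45, 35.1 and 6.94 CPM in the BIT libraries, in the same order as *Hbb-bs* apart from the positions of WT replicate 2 and BIT replicate 3.

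The region before the start of *Hbb-bs* is shown because this gene was the highest of the red cell members. In RefSeq (GRCm38.p6) the 250 bases before its start are chr7:103827929-103828178 on the minus strand, printed 5′ to 3′ with matches to 2 motifs in capitals. The letters of a GATA site, AGATAA, begin 210 bases before the start, and those of a CACCC box, CCACACCC, begin 93 bases before it, with both strands searched and no overlap between them.
Hbb-bs: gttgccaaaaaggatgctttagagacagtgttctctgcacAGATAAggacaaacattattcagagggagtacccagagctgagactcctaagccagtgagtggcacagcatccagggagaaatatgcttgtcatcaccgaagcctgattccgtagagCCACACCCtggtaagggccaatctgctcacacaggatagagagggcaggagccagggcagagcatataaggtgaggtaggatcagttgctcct
Among 32851 regions of the same length before RefSeq starts, 9.99% held the GATA letters and 3.2% those of the CACCC box, and a match is a description of the letters alone.

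The members were not spread evenly over the libraries. Of the 31, 15 were highest in WT replicate 2, 8 in WT replicate 3, 5 in BIT replicate 2, 2 in BIT replicate 3, 1 in BIT replicate 1 and 0 in WT replicate 1. Among the 30 tested, 14 were highest in WT replicate 2, beside 11.7% of all genes tested. The highest level was at least 3 times the median of the libraries in 7 members, 6 of them among the 30 tested, beside 1.55% of all genes tested. These were *Itgam* and *Itgax* in WT replicate 3, *S100a8*, *S100a9*, *Hbb-bs* and *Hba-a1* in BIT replicate 2, and *Siglech* in WT replicate 2. Genotype did not separate the libraries in any of these genes but *Siglech*, whose counts were too few to be tested.

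Without WT replicate 3, whose label and sex-linked transcripts disagreed, more members had small p-values but none passed the adjustment. At an unadjusted p below 0.05, 7 members were lower in BIT, beside 6.43% of the 16502 genes then tested, and 2 were higher, beside 5.27%. The lower members were *Cd79a*, *Ms4a1*, *Pax5*, *Ebf1*, *Cr2*, *Lyz2* and *Adgre1*, with log2 fold changes from -0.55 (*Cd79a*) to -0.96 (*Pax5*), and the higher were *S100a8* at 2.80 and *S100a9* at 3.26. Their adjusted p-values were between 0.269 (*Pax5*) and 0.418 (*Cd79a*), and the lower members were all highest in WT replicate 2, one of the 2 WT libraries that then remained. The median over the members was -0.35, beside 0.005 for all genes then tested, and 21 of 30 were below 0, beside 49.3% of all genes.

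**Figure D4:**
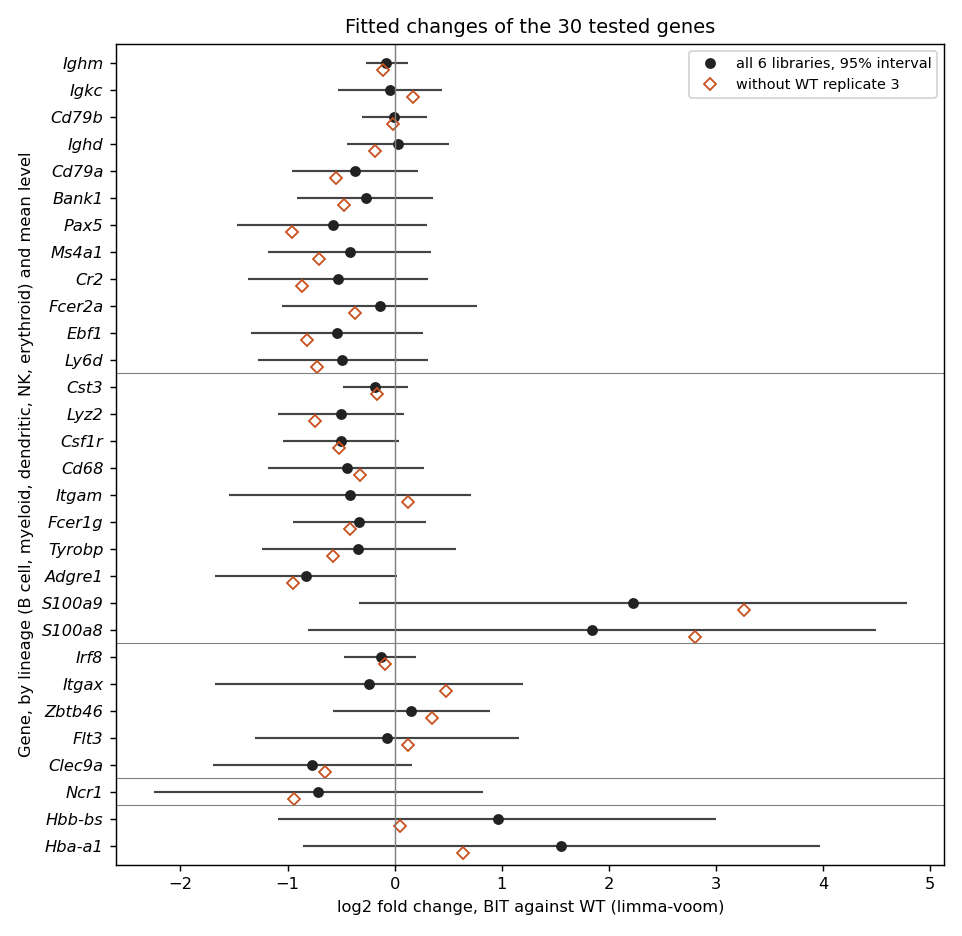
Fitted log2 fold change of BIT against WT for the 30 tested members by limma-voom, with 95% intervals (dots and lines), and the value without WT replicate 3 (open diamonds). Every interval includes 0, *Pax5* moves from -0.58 to -0.96, and *Itgam* and *Itgax* cross 0.

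Further genes of the same lineages, from lists drawn up with earlier results of these data known, were read in the same fit. Of 11 other B cell genes tested, 1 was lower at an unadjusted p below 0.05 and 0 higher, beside 4.32% and 4.25% of all genes. The 2 of highest level were *Cd72*, between 25.2 and 31.8 CPM in all libraries (log2 fold change -0.03 ± 0.0952), and *Pou2af1*, a coactivator of immunoglobulin genes, with 18.9, 18.5 and 17.9 CPM in the WT libraries and 13.6, 15.3 and 16.8 CPM in the BIT libraries (-0.29 ± 0.106, adjusted p = 0.539). All 11 had fitted changes below 0, with a median of -0.29. Without WT replicate 3, 9 of the 11 were below 0, and 3 were lower and 0 higher at that threshold. The shares of all genes were then 6.43% and 5.27%. Of the 2 plasma cell genes tested, 1 was lower at that threshold: *Jchain* lay at 0.66 ± 0.426 and *Mzb1* at -1.15 ± 0.405 (adjusted p = 0.699 and 0.535).

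The genes of MHC class II, by which B cells, macrophages and dendritic cells present peptides to CD4+ T cells, had fitted changes below 0 in all 5 genes tested. By limma-voom, 4 of the 5 were lower at an unadjusted p below 0.05 and 0 higher, beside 4.32% and 4.25% of all genes, and none had an adjusted p below 0.05. With DESeq2 the adjusted p was 0.0136 for *H2-Aa* and 0.0431 for *H2-Ab1*. Over the 16105 genes tested, DESeq2 called 125 at an adjusted p below 0.05, and limma-voom 22. *Cd74*, the invariant chain, had 55.8, 80.7 and 83.2 CPM in the WT libraries and 51.7, 57.5 and 44.8 CPM in the BIT libraries (-0.55 ± 0.178, adjusted p = 0.511), and *H2-Ab1* had 19, 33.2 and 32.1 CPM against 16.7, 17.5 and 15.6 CPM (-0.73 ± 0.227, adjusted p = 0.508). WT replicate 1 lay close to the BIT libraries in both. *H2-Ab1* lies 56.2 kb from the edited *Psmb8* on chromosome 17, whereas *Cd74* lies on chromosome 18. The 5 genes summed to 105, 168 and 165 CPM in the WT libraries and 96.7, 100 and 84 CPM in the BIT libraries.

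Further macrophage and dendritic genes were lower in part, and apart from the 2 genes of highest level of each list they were chosen for mention after their values were seen. Of 9 further macrophage and monocyte genes tested, 3 were lower and 1 higher at an unadjusted p below 0.05, beside 4.32% and 4.25% of all genes. The 2 of highest level, *Ctss* and *Ly6c2*, are also transcribed in T cells and lay at 0.17 ± 0.149 and 0.46 ± 0.173, the latter being the higher one (adjusted p = 0.77 and 0.546). With them, the list summed to between 513 and 581 CPM in the WT libraries and between 646 and 895 CPM in the BIT libraries. Without them, the summed level was 13.4, 18 and 13.9 CPM in the WT libraries and 7.11, 8.7 and 9.77 CPM in the BIT libraries. The 3 lower genes were the complement genes *C1qa* (-0.68 ± 0.26) and *C1qb* (-1.07 ± 0.393) and the mannose receptor gene *Mrc1* (-0.85 ± 0.252), with adjusted p of 0.547, 0.538 and 0.503. Of 5 further dendritic genes, 2 were lower and 0 higher at that threshold, beside the same shares of all genes: *Wdfy4*, which is needed for cross-presentation, at -0.65 ± 0.166, and *Fscn1*, the actin-bundling protein of mature dendritic cells, at -1.71 ± 0.437 (adjusted p = 0.385 for both). By DESeq2 the adjusted p was 0.0367 for *Wdfy4* and 0.000818 for *Fscn1*, in a fit that called 125 of the 16105 genes tested at an adjusted p below 0.05. *Bcl11a*, second to *Wdfy4* in level, lay at -0.35 ± 0.298 (adjusted p = 0.764 by limma-voom). The sums of these dendritic genes were 15.7, 21.6 and 20.7 CPM in the WT libraries and 9.94, 10.5 and 12.4 CPM in the BIT libraries, so that the groups did not overlap, whereas those of the dendritic members did. Single genes overlapped between the groups in 3 of the 5 tested, and 2 were lower in every BIT library, beside 5.96% of all genes. *Wdfy4* was the largest part of the sums, with means of 11.5 CPM in WT and 7.11 CPM in BIT, where the sums had means of 19.3 and 11 CPM. The ratio of the BIT to the WT mean of these sums was 0.567 for the dendritic genes, 0.565 for the macrophage genes without *Ctss* and *Ly6c2*, and 0.641 for MHC class II, and 0.589, 0.543 and 0.686 without WT replicate 3. Without that library, 6 of 10 further macrophage and monocyte genes were lower and 1 higher at an unadjusted p below 0.05. For the further dendritic and the MHC class II genes, 3 of 5 each were lower and 0 higher. The shares of all genes were then 6.43% lower and 5.27% higher.

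**Figure D5:**
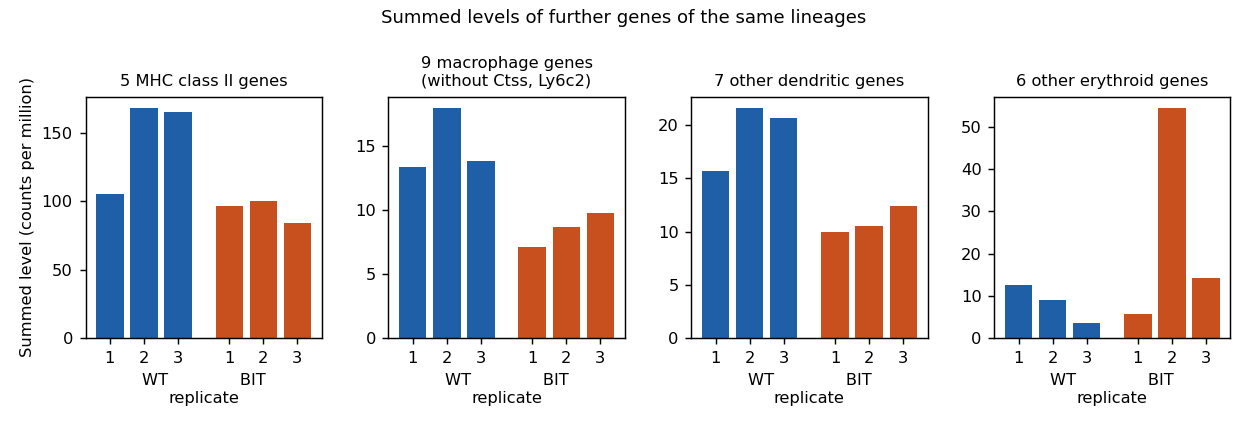
Summed level in CPM of further genes of MHC class II, macrophages (without *Ctss* and *Ly6c2*), dendritic cells and erythroid cells in each library, with WT replicates in blue and BIT replicates in orange. The first 3 sums are lower in every BIT than in every WT library, although the macrophage sum with *Ctss* and *Ly6c2* is higher in every BIT library, and the erythroid sum is highest in BIT replicate 2, at 54.4 CPM.

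The further erythroid genes were highest in BIT replicate 2, as the globins were, whereas of the 6 further neutrophil genes 5 were highest in WT replicate 3 and 1 in BIT replicate 2. Of the 6 neutrophil genes, the granule gene *Ngp* alone could be tested, with 0, 0.376 and 1.78 CPM in the WT libraries and 0.179, 1.66 and 1.44 CPM in the BIT libraries (2.32 ± 1.46, adjusted p = 0.691), and the defining marker *Ly6g* had 0 counts in 5 of the 6 libraries. *Mpo*, next to *Ngp* in mean level, had 15 counts in WT replicate 3, 8 in BIT replicate 3 and 0 in every other library. The 6 erythroid genes summed to 12.5, 9.02 and 3.6 CPM in the WT libraries and 5.65, 54.4 and 14.3 CPM in the BIT libraries, and each of the 6 was highest in BIT replicate 2, *Klf1* together with BIT replicate 3. Of the 5 tested, 0 passed an unadjusted p of 0.05 in either direction, beside 4.32% of all genes lower and 4.25% higher in BIT. *Alas2*, the first enzyme of heme synthesis in erythroid cells, had 5.01, 3.58 and 0.526 CPM against 2.37, 21.7 and 5.42 CPM (1.60 ± 1.03), and the gene of the membrane protein band 3, *Slc4a1*, lay at 1.16 ± 0.827 (adjusted p = 0.698 and 0.716).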

How the data were processed

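RNA of sorted cells had been prepared with a stranded total RNA kit after removal of ribosomal RNA and sequenced as paired reads. The authors made estimated counts per gene with RSEM and Gencode M38, after trimming (Cutadapt) and alignment (STAR) to GRCm39. The submitters' processing notes name cutadapt 1.18, STAR 2.7.0f and RSEM 1.3.1, and the strand setting of the counting is not given in the sources used here. The deposited values are expected counts, not normalized, which divide a read between genes that share it, and 84.8% of the values above 0 are exactly whole as written.

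The expected counts were rounded, and genes kept by filterByExpr of edgeR 4.0.16 (minimum count 10) were compared with limma 3.58.1 (voom with quantile normalization, Benjamini-Hochberg adjustment over all 16105 genes) in R 4.3.3. Single genes also had a two-sided exact permutation test, whose smallest p is 0.1. Whether groups overlapped was read on the normalized log2 scale unless CPM is named. Fits were tested on simulated data in which the changed genes were drawn from those of higher level, so that recovery at the level of most members was not tested. Groups and replicate numbers came from the sample titles. Nothing states that the replicates were processed separately beyond being different mice, and p-values measure the spread between these libraries. The comparison was repeated with DESeq2 1.42.0, edgeR's quasi-likelihood test, TMM normalization, other filters, quality weights, a replicate block, replicate 3 as a batch and leaving out each library. Positions and exon lengths are from Gencode M39, which holds 78263 of the 78275 identifiers.

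The members and the further gene lists were chosen with earlier results of these data known. Values in every library are given for the 3 members of highest mean level of the B cell, myeloid and dendritic lists, *Ncr1*, the globins, members with a p below 0.05, and those with a library at 3 times the median or more. From the further lists, the 2 genes of highest level and genes with an adjusted p below 0.05 were named. Other genes and the sums without *Ighm*, *Ctss*, *Ly6c2* or *Gzma* were chosen after their values were seen.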

Additional observations from a re-analysis of the deposited data

How the results depend on the processing

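No member passed an adjusted p of 0.05 in the main comparison or under any of the 15 other settings. The median log2 fold change of the tested members kept its sign, from -0.42 (edgeR and DESeq2) to -0.09 (without WT replicate 2), against -0.30. The number of members at an unadjusted p below 0.05, 0 in the main comparison, was 2 with TMM normalization, 1 with edgeR, 4 with DESeq2, 1 with no filter on low counts, 3 with quality weights, 6 with replicate 3 as a batch, 6 with replicates 1 and 2 alone, and between 0 and 9 with each library left out, highest without WT replicate 3. The share of all genes at that threshold moved as well: 8.57% in the main comparison, 8.28%, 7.44%, 7.21%, 7.05%, 12.4%, 14.4% and 14.3% in the same order of settings, and between 3.84% and 11.7% with each library left out. Over all genes, 4 were changed at an adjusted p below 0.01 and over 2-fold, against 29 with DESeq2, 7 with quality weights, 9 with replicate 3 as a batch, 16 with replicates 1 and 2 alone, between 1 and 4 with each library left out, and 22 at an adjusted p below 0.05 with no limit on the fold. With the replicate number as a block, 2 genes were changed, and 7 members and 12.4% of all genes had an unadjusted p below 0.05. The numbers were not taken to pair the samples, since the deviations of same-numbered libraries correlated at 0.236, 0.035 and 0.441 for replicates 1, 2 and 3.

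The log2 ratio of the B cell sum was -0.22 without *Ighm*, against -0.03, and that of the myeloid sum -0.54 without *Cst3*, against -0.28. That of the dendritic sum was between -0.72 and 0.08 with each library left out, and that of the globins between -0.14 and 1.75.

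Signs turned in 9 members, none of them past the test. With quality weights the log2 fold change was 0.06 for *Cd79b*, -0.01 for *Ighd*, 0.14 for *Igkc*, 0.19 for *Itgax* and 0.03 for *Flt3*. With replicates 1 and 2 alone it was 0.10 for *Cd79b*, -0.12 for *Ighd*, 0.26 for *Igkc*, 0.01 for *Fcer2a*, 0.20 for *Itgam* and 0.47 for *Itgax*. With TMM normalization, edgeR and DESeq2 it was 0.01, 0.00 and 0.01 for *Ighm* and -0.01, -0.14 and -0.13 for *Zbtb46*, and 0.00 with edgeR for *Ighd* and with replicate 3 as a batch for *Cd79b*. With each library left out it was between -0.07 and 0.11 for *Cd79b*, -0.18 and 0.16 for *Ighd*, -0.29 and 0.17 for *Igkc*, -0.38 and 0.24 for *Fcer2a*, -0.78 and 0.12 for *Itgam*, -0.73 and 0.48 for *Itgax*, -0.67 and 0.30 for *Flt3*, and -0.07 and 0.35 for *Zbtb46*. The causes were not tested. Precision was limited by 3 mice a group and, for *Siglech*, *Ncr1*, *S100a8* and *S100a9*, by low counts.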

Other observations

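Genes of platelets, stroma, NK cells and other T cells were also read, as values. Of the 2 platelet genes tested, neither passed an unadjusted p of 0.05, beside 4.32% of all genes lower and 4.25% higher in BIT. The platelet chemokine gene *Ppbp* had 1.59, 1.31 and 0.451 CPM in the WT libraries and 0.156, 0.309 and 0.667 CPM in the BIT libraries (log2 fold change -1.44 ± 0.706, adjusted p = 0.63). The other gene, *Itga2b*, had 0.775, 0.316 and 0.576 CPM against 0.335, 0.428 and 0.907 CPM (0.17 ± 0.461, adjusted p = 0.937). The collagen genes *Col1a2* and *Col3a1* and the lymphatic genes *Ccl19* and *Lyve1* were below 0.1 CPM in every library, as was *Ccl21a*. *Col1a1* was between 0.0791 and 0.34 CPM, the endothelial gene *Cdh5* between 0.175 and 0.257 CPM in the WT and between 0 and 0.0713 CPM in the BIT libraries, and the epithelial gene *Epcam* between 1.1 and 1.81 CPM in all libraries, whereas *Pecam1*, which T cells also transcribe, was between 92.7 and 121 CPM. Of the 6 further NK genes, 1 was higher and 0 lower at an unadjusted p below 0.05, beside 4.25% and 4.32% of all genes. The higher gene was *Klre1*, a receptor that CD8+ T cells also use, with 0.945, 1.52 and 3.3 CPM in the WT libraries and 2.26, 3.68 and 3.87 CPM in the BIT libraries (1.04 ± 0.324, adjusted p = 0.508). The summed level of the NK list without *Gzma* was between 3.2 and 6.91 CPM in the WT libraries and between 4.65 and 7.36 CPM in the BIT libraries.

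*Izumo1r*, which encodes folate receptor 4 of regulatory and anergic T cells, was, by limma-voom, the sole gene of the lists of other lineages and of T cells with an adjusted p below 0.05. It had 21.6, 22 and 25.8 CPM in the WT libraries and 12.8, 11.5 and 11.2 CPM in the BIT libraries, a log2 fold change of -0.96 ± 0.122 (adjusted p = 0.0399), lower in 3 of 3 BIT libraries than in any WT library. The call was lost in the fits without WT replicate 1 (adjusted p = 0.1), WT replicate 2 (0.189), BIT replicate 1 (0.0803), BIT replicate 2 (0.277) and BIT replicate 3 (0.102), with a replicate block (0.0551) and with no filter on low counts (0.0602), at log2 fold changes between -1.05 and -0.88. It was kept by limma-voom without WT replicate 3 (log2 fold change -0.93, adjusted p = 0.0349). *Cd4*, whose product the sort excluded, was between 0.179 and 0.718 CPM. Of the 5 genes listed for CD4+ T cells, *Izumo1r* among them, 3 had fitted changes below 0 and 2 above. *Foxp3*, the factor of regulatory T cells, lay at -0.62 ± 0.449 and *Cd4* at -0.46 ± 0.556 (adjusted p = 0.723 and 0.836). *Zbtb7b*, second in level in that list, lay at 0.21 ± 0.27 and *Cd40lg* at 0.00 ± 0.482 (adjusted p = 0.843 and 0.999). The γδ T cell gene *Trdc* was between 3.57 and 5.03 CPM in all libraries.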
